A study of Mus musculus with 37 samples.

Results

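Gas1 and the Hedgehog pathway genes Gli1, Gli2, Gli3, Ptch1, Smo, Hhip, Boc and Cdon were followed through cardiac fibroblasts (CFs), neonatal rat ventricular myocytes (NRVMs) and the nonmyocytes of injured mouse hearts. These are 9 of 30892 genes in the CF table, of 20158 genes in the NRVM table and of 31053 genes in the tables of single cells, and they were matched by symbol. The set was chosen with earlier results of these data known, and which values chose it is not recorded. It was read as chosen by the level of Gas1 in CFs under ENPP1+ATP and AMP medium, so for Gas1 those comparisons are given as a description with no test. The other members were read as taken for their roles in the same pathway, and their tests are adjusted over all genes of each table. If their values too had a part in the choice, their p-values in those CF comparisons are descriptions as well.

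Hedgehog ligands (SHH, IHH and DHH) bind the receptor PTCH1, which in the absence of ligand holds the membrane protein SMO inactive. Released SMO acts at the primary cilium on the zinc finger transcription factors GLI1, GLI2 and GLI3. GAS1, BOC and CDON are cell surface coreceptors that bind ligand together with PTCH1, and HHIP binds ligand and takes it away from the receptor. Ptch1, Hhip and Gli1 are themselves genes that GLI factors switch on, so their RNA is often read as an output of the pathway. In the heart the pathway is known for its part in coronary vessel growth during development, and Gli1 marks perivascular mesenchymal cells of adult organs.

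The study asked how myocytes exposed to the ectonucleotidase ENPP1, to its substrate ATP, to both, or to the product AMP act on CFs. CFs were wild type C57BL/6 mouse cells immortalized with the SV40 antigen, held in serum-free medium and then given conditioned medium of NRVMs (MCndM) for 24 or 48 h, with 2 libraries for each of 5 media at each time. NRVMs were wild type Sprague-Dawley cells of 24 h in groups labelled vehicle, ENPP1, ATP, ENPP1+ATP and AMP, with 3 libraries each. Their labels name the treatment as conditioned medium, and the study describes both myocytes given ENPP1+ATP MCndM and myocytes given the agents themselves to make that medium. The groups are therefore called by their labels, as under ATP, and whether conditioned medium or the agent itself was added is not settled here. The labels also name the organism as mouse, whereas the cell type named is rat. Nonmyocytes came from the hearts of C57BL/6 mice 7 days after myocardial infarction, with 1 library labelled wild type (control) and 1 library labelled ENPP1 CKO (ENPP1CKO). In ENPP1CKO mice the Enpp1 gene is deleted by a tamoxifen-inducible Cre under the Col1a2 promoter, which is active in collagen-producing cells, and the number of hearts behind each library is not given in the sources used here. The study's statistics section calls its replicates biological, while the labels do not say whether the libraries of a group came from separate cultures, and if they did not, the p-values measure only technical spread.

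CF libraries held 32184799 to 115824659 counts, and the deepest was vehicle replicate 1 at 24 h. NRVM libraries held 13481389 to 16977980 counts. Levels are given as counts-per-million (CPM), scaled by TMM factors, and changes as log2 values ± their standard errors from edgeR's quasi-likelihood test with Benjamini-Hochberg adjustment over 17879 CF genes or 13461 NRVM genes at 0.05. Markers of fibroblasts were all detected in CFs and summed to 7220 to 7625 CPM in vehicle medium at 24 h. In NRVM cultures the cardiomyocyte markers summed to 42948 to 45206 CPM and the fibroblast markers to 24942 to 26324 CPM under vehicle, so these cultures held RNA of both cell types.

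Gas1, Ptch1 and Gli3 lie on the same mouse chromosome. In GRCm38 coordinates of the GENCODE annotation, Gas1 lies at chr13:60174405-60177365 on the minus strand, Ptch1 at chr13:63508328-63573598 on the minus strand and Gli3 at chr13:15463235-15730026 on the plus strand. Gli2 lies at chr1:118834132-119053619 (minus), Gli1 at chr10:127329882-127341974 (minus), Smo at chr6:29735503-29761365 (plus), Boc at chr16:44485049-44558897 (minus), Hhip at chr8:79965851-80058006 (minus) and Cdon at chr9:35421128-35507652 (plus). Exons of Gas1 share 589 bases, 19.9% of their length, with Gm48488, a noncoding gene on the opposite strand. Whether the counting used strand is not given in the sources used here, so reads over those bases cannot be told apart.

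The 250 bases before the start sites of Gas1, Gli2 and Ptch1 are shown because Gas1 held the largest difference in CFs and Gli2 and Ptch1 were lower in CFs in all 4 comparisons of active medium with vehicle. Boc and Cdon were lower in all 4 as well, but Boc had no entry and the start site used for Cdon lies 30948 bases inside its annotated gene, so neither is shown. They were taken from RefSeq on GRCm38.p6, and 7 of the 9 members had an entry. Each sequence is read 5′ to 3′ on the strand of the gene and ends at the base before the start site. The capitals mark a 9-letter stretch closest to GACCACCCA, the motif bound by GLI factors, on either strand. Where stretches tied, only the first found is marked, with the strand of the gene searched before the other. In Gli2 the stretch AGGGTGGTG, and in Gas1 the stretch TGGGAGGAG, matched as many letters on the other strand and are not marked.
Gas1: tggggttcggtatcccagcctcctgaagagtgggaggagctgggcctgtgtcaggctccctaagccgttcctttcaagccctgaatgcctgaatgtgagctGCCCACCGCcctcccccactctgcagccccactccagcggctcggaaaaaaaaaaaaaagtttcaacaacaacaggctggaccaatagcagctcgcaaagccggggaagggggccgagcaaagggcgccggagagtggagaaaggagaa
Gli2: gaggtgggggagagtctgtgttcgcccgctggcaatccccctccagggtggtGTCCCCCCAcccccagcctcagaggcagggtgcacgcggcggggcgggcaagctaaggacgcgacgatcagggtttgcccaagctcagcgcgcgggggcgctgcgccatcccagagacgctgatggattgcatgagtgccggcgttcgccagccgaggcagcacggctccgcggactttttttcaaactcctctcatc
Ptch1: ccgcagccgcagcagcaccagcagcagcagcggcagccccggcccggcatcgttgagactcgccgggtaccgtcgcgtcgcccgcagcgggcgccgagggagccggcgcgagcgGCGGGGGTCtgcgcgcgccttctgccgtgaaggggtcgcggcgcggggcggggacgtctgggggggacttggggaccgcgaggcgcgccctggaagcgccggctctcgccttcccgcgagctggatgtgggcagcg
The Gas1 stretch lies at chr13:60177536-60177785 (minus), that of Gli2 at chr1:119053620-119053869 (minus) and that of Ptch1 at chr13:63565736-63565985 (minus). The closest match had 7 of the 9 letters for Gli2 and 6 of the 9 letters for Gas1 and for Ptch1. None of the 7 members with an entry held the exact motif in this window, and it was present in 0.225% of 32851 promoters of the same length. A match of at least 7 letters was held by 3 of the 7 members (Gli2, Smo and Hhip) and by 51.8% of all promoters. The start site used for Ptch1 lies 7863 bases inside its annotated gene, so other start sites of Ptch1 are outside this window. That used for Gas1 lies 170 bases upstream of its annotated gene.

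In CFs under vehicle medium at 24 h, the members covered a wide range of levels per length of exon. Gas1 stood highest at 100.8 CPM per kb, followed by the transducer Smo at 23.9, the coreceptor Cdon at 22.2, Gli3 at 15.3, the coreceptor Boc at 5.42 and the receptor Ptch1 at 2.74 CPM per kb. Gli2 at 0.329 and Gli1 at 0.103 CPM per kb were far below them, and no 2 neighbours in this order overlapped between the vehicle libraries at 24 h. Hhip, the ligand-binding inhibitor, had 17 counts over all 20 CF libraries, with 10 libraries at 0 and at most 4 counts in any library, so its changes could not be measured. Of the ligands, Shh had 1 count in 1 CF library, Dhh 0 to 8 counts and Ihh 1 to 29 counts per library. RNA of receptors, coreceptors and GLI factors was thus detected beside few counts of the ligands.

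**Figure D1:**
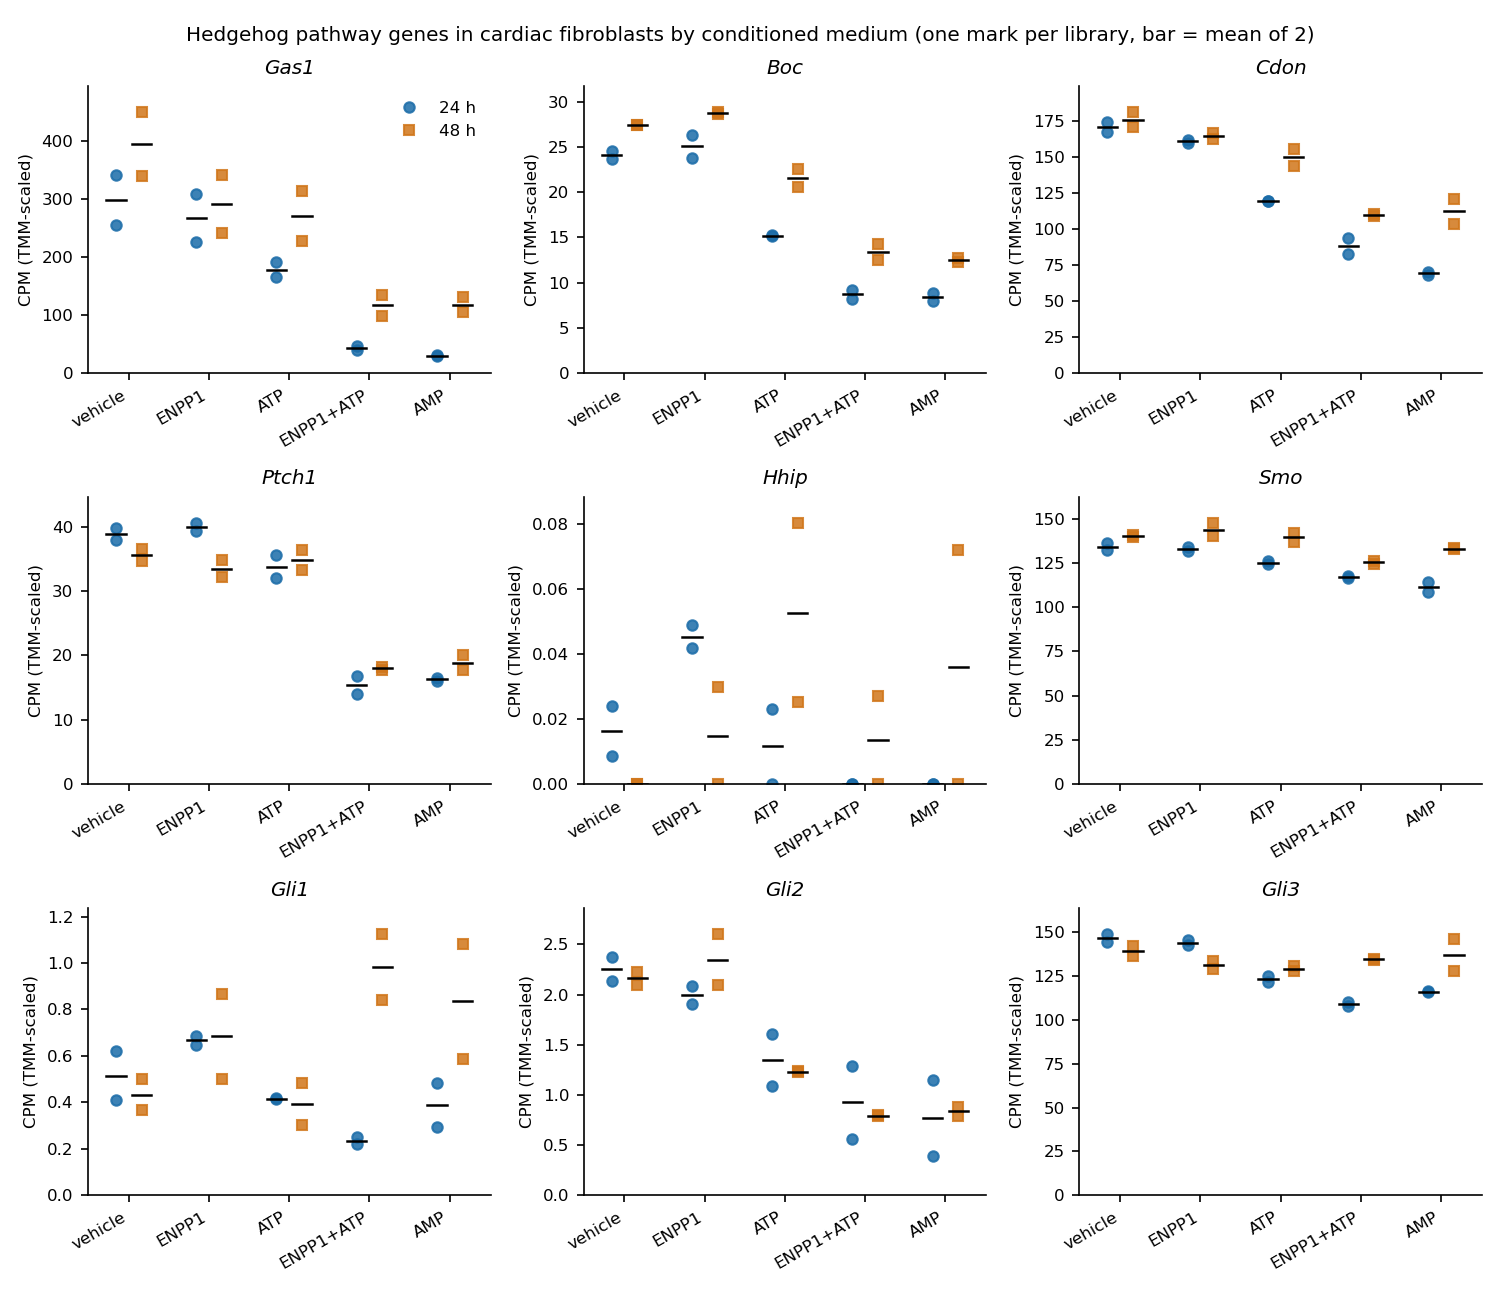
CPM of the 9 members (panels) in every CF library (y axis, linear, from 0) by medium (x axis). Circles are libraries of 24 h and squares those of 48 h, with a bar at the mean of 2, and Gas1 lies between 30.3 and 46.1 CPM in both active media at 24 h and between 255 and 342 CPM in vehicle medium.

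Gas1, the growth arrest-specific coreceptor anchored to the cell surface by a lipid, had the largest difference of the members in CFs. At 24 h it stood at 342 and 255 CPM in vehicle medium, 310 and 227 CPM in ENPP1 medium, 192 and 165 CPM in ATP medium, 46.1 and 40.0 CPM in ENPP1+ATP medium and 30.3 and 30.7 CPM in AMP medium. Vehicle and ENPP1 libraries overlapped, ATP libraries lay below both, and ENPP1+ATP and AMP libraries lay below all others. The difference from vehicle was −2.80 ± 0.29 on the log2 scale in ENPP1+ATP medium and −3.29 ± 0.29 in AMP medium. At 48 h Gas1 stood at 450 and 340 CPM in vehicle medium, 341 and 241 in ENPP1 medium and 228 and 315 in ATP medium. It stood at 135 and 99.4 CPM in ENPP1+ATP medium and 132 and 105 CPM in AMP medium. The libraries of ENPP1 and ATP medium overlapped at 48 h, as did those of ENPP1+ATP and AMP medium. The difference from vehicle at 48 h was −1.75 ± 0.27 in ENPP1+ATP medium and −1.74 ± 0.27 in AMP medium. Per length of exon, Gas1 at 24 h in AMP medium was at 10.3 CPM per kb, below Smo at 19.8 and Gli3 at 12.1 CPM per kb.

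At 24 h, 6 of the 7 other members tested fell in ENPP1+ATP medium and 6 of 7 fell in AMP medium, and none rose. By edgeR, 49.1% of all genes were called in ENPP1+ATP medium and 25.3% were called lower; in AMP medium these shares were 52.8% and 27.5%. The median change of these 7 members was −1.16 and −1.26 against medians of −0.0046 and −0.0058 for all genes. Both comparisons share the vehicle libraries. In bulk samples, fewer cells of a type and less RNA per cell cannot be told apart. The summed fibroblast markers were 3611 to 3707 CPM in ENPP1+ATP medium and 2831 to 3055 CPM in AMP medium against 7220 to 7625 CPM in vehicle medium. Of 10 markers, 8 were called lower and 1 higher in each, and none of the 10 was at 0. The summed markers of cycling cells moved the other way, from 3419 to 3426 CPM to 5458 to 5828 and 5282 to 5650 CPM. Of 15, 12 were called higher and 1 lower in each. Macrophage markers summed to 15.8 to 18.3 CPM in vehicle medium, 34.5 to 42.3 CPM in ENPP1+ATP medium and 58.7 to 61.8 CPM in AMP medium. Lymphatic or mesothelial markers summed to 111 to 115 CPM in ENPP1+ATP and 112 to 123 CPM in AMP medium against 70.7 to 73.3 CPM in vehicle medium. Of 7 tested, 4 were called higher in each. The part of these marker changes in the members' values was not tested.

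Among the coreceptors at 24 h, Boc stood at 23.6 and 24.6 CPM in vehicle medium, 8.22 and 9.19 CPM in ENPP1+ATP medium and 7.95 and 8.88 CPM in AMP medium. It fell by 1.47 ± 0.09 (edgeR adjusted p = 1.93e-12) and by 1.51 ± 0.09 (5.53e-13). Cdon, a close relative of Boc, stood at 174 and 168 CPM in vehicle medium, 93.6 and 82.6 CPM in ENPP1+ATP medium and 68.1 and 70.4 CPM in AMP medium. It fell by 0.96 ± 0.06 (edgeR adjusted p = 3.97e-12) and by 1.30 ± 0.06 (1.25e-14). For both coreceptors, libraries of the active media lay below all vehicle libraries, and the ENPP1+ATP and AMP libraries overlapped for Boc only.

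The receptor Ptch1 stood at 37.9 and 39.8 CPM in vehicle medium at 24 h, 14.05 and 16.7 CPM in ENPP1+ATP medium and 16.6 and 15.97 CPM in AMP medium. It fell by 1.33 ± 0.09 (edgeR adjusted p = 2.87e-12) and by 1.26 ± 0.08 (3.86e-12), so its libraries in the active media overlapped each other and stayed apart from vehicle. Smo, the transducer that PTCH1 inhibits, moved less. It stood at 132 and 136 CPM in vehicle medium, 117 and 116.3 CPM in ENPP1+ATP medium and 114 and 109 CPM in AMP medium, with falls of 0.20 ± 0.04 (edgeR adjusted p = 0.000489) and 0.27 ± 0.04 (1.08e-05).

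The GLI factors differed in level and in change. Gli3, which is largely processed to a repressor, stood at 149 and 145 CPM in vehicle medium at 24 h, 110 and 108 CPM in ENPP1+ATP medium and 115.6 and 116.2 CPM in AMP medium. It fell by 0.43 ± 0.05 (edgeR adjusted p = 1.22e-07) and by 0.34 ± 0.05 (3.16e-06). Gli2, the main activator, was near 2 CPM in vehicle medium, at 2.14 and 2.38 CPM, and stood at 0.563 and 1.29 CPM in ENPP1+ATP medium and 0.389 and 1.151 CPM in AMP medium. Its libraries in each active medium were far apart, and it fell by 1.27 ± 0.37 (edgeR adjusted p = 0.00544) and by 1.47 ± 0.36 (0.00129). Without ENPP1+ATP replicate 1 the change of Gli2 in that medium was −0.80 with an adjusted p of 0.138. Gli1 had 71 and 17 counts (0.622 and 0.408 CPM) in vehicle medium, 9 and 11 counts (0.220 and 0.249 CPM) in ENPP1+ATP medium and 12 and 37 counts (0.292 and 0.484 CPM) in AMP medium. Its differences of −1.16 ± 0.50 (edgeR adjusted p = 0.0583) and −0.41 ± 0.46 (0.479) did not pass the test.

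**Figure D2:**
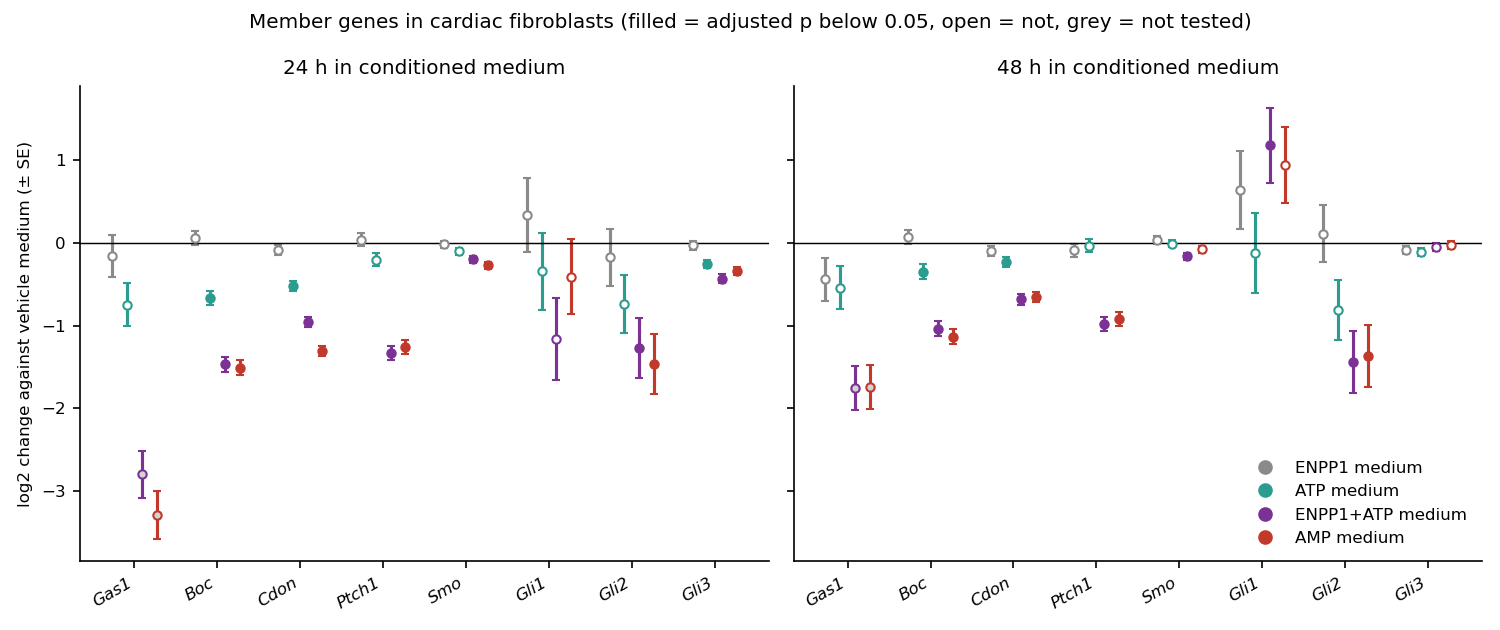
Log2 change against vehicle medium (y axis) of the 8 members that passed the filter in CFs (x axis), coloured by medium, at 24 h and 48 h (panels), with bars of 1 standard error, filled points past the adjusted p of 0.05, open points not past it and grey-filled points not tested. Boc, Cdon, Ptch1 and Gli2 lie below 0 in ENPP1+ATP and AMP medium at both times, and Gli1 in ENPP1+ATP medium lies at −1.16 at 24 h and 1.18 at 48 h.

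The same comparisons were made at 48 h. In ENPP1+ATP medium 5 of 7 members other than Gas1 fell and Gli1 rose, against 45.2% of all genes called and 24.4% called lower, and in AMP medium 4 of 7 fell, against 44% called and 22.9% called lower. Boc, Cdon, Ptch1 and Gli2 fell in both media at both times, as did 11.7% of all genes. Boc stood at 27.4 and 27.4 CPM in vehicle medium, 12.5 and 14.3 CPM in ENPP1+ATP medium and 12.3 and 12.7 CPM in AMP medium, falls of 1.04 ± 0.09 (edgeR adjusted p = 5.98e-10) and 1.13 ± 0.09 (1.15e-10). Ptch1 stood at 34.6 and 36.5, 17.7 and 18.2, and 20.1 and 17.7 CPM in the same order, falls of 0.99 ± 0.09 (edgeR adjusted p = 7.09e-10) and 0.91 ± 0.08 (2.18e-09). Libraries in the active media lay apart from vehicle for both genes, and the active media overlapped each other.

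Cdon stood at 181 and 171 CPM in vehicle medium at 48 h, 109 and 110 CPM in ENPP1+ATP medium and 121 and 104 CPM in AMP medium, falls of 0.68 ± 0.06 (edgeR adjusted p = 1.77e-09) and 0.65 ± 0.06 (3.94e-09). Gli2 stood at 2.10 and 2.23, 0.803 and 0.785, and 0.793 and 0.881 CPM in that order, falls of 1.44 ± 0.38 (edgeR adjusted p = 0.00288) and 1.36 ± 0.37 (0.00421). At this time its libraries within each medium lay close together. Smo fell in ENPP1+ATP medium by 0.16 ± 0.04 (edgeR adjusted p = 0.00409), while its value in AMP medium was −0.07 (0.179), and the 2 media were not tested against each other. Gli3, which had fallen at 24 h, was at 142 and 137 CPM in vehicle medium, 134 and 135 CPM in ENPP1+ATP medium and 128 and 146 CPM in AMP medium, and neither difference passed the test (−0.05, edgeR adjusted p = 0.449, and −0.02, 0.742). The summed fibroblast markers at 48 h were 3880 to 4096 CPM in ENPP1+ATP medium and 4077 to 4362 CPM in AMP medium against 7128 to 7541 CPM in vehicle medium. Of 10, 6 were called lower and 1 higher in each. Markers of smooth muscle or pericytes summed to 445 to 462 and 498 to 514 CPM against 216 to 220 CPM. Of 7 tested, 3 and 4 were called higher, and 1 was called lower in ENPP1+ATP medium. Those of macrophages summed to 73.1 to 83.9 and 77.9 to 88.5 CPM against 16.7 to 18.1 CPM. Of 4 tested, 3 were called higher in each, and 1 was called lower in AMP medium. Those of endothelial cells summed to 860 to 873 and 839 to 848 CPM against 555 to 567 CPM. Of 7 tested, 1 was called higher in each and 2 and 1 were called lower, with median log2 changes of −0.28 and −0.13. Those of lymphatic or mesothelial cells summed to 87.0 to 87.7 and 86.8 to 99.1 CPM against 60.5 to 63.1 CPM. Of 7 tested, 3 were called higher in each, and 1 was called lower in ENPP1+ATP medium. Those of cycling cells summed to 4437 to 4440 and 4347 to 4364 CPM against 3572 to 3586.5 CPM. Of 15, 10 and 9 were called higher and 1 lower in each. The part of these changes in the members' values was not tested.

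Gli1, both a factor and a target of the pathway, had 20 and 24 counts (0.368 and 0.499 CPM) in vehicle medium at 48 h, 49 and 31 counts (1.125 and 0.839 CPM) in ENPP1+ATP medium and 45 and 26 counts (1.082 and 0.587 CPM) in AMP medium. In ENPP1+ATP medium it rose by 1.18 ± 0.46 (edgeR adjusted p = 0.0378), and its value in AMP medium was 0.94 ± 0.46 (0.102). ENPP1 medium held Gli1 at 0.868 and 0.4998 CPM, and the first of these lay within the range of the ENPP1+ATP libraries. The rise in ENPP1+ATP medium did not pass the test without ENPP1+ATP replicate 1 (adjusted p = 0.165), without vehicle replicate 1 (0.224) or without vehicle replicate 2 (0.0788), by DESeq2 (0.0595), with no filter on low counts (0.0592) or with libraries of 48 h alone (0.0602). Exons of Gli1 share 327 bases, 6.55% of their length, with Arhgap9 and Gm47200 on the opposite strand, and Arhgap9 had 0 to 10 counts in any CF library.

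Between 24 and 48 h in the same medium, no member changed in vehicle medium by edgeR or by DESeq2, where 4.88% of all genes were called. These 873 genes became 235 to 440 without each library in turn, lowest without vehicle replicate 1 of 48 h. At an unadjusted p under 0.05, 1 of the 8 members tested (Boc) passed there. In ENPP1+ATP medium 4 of 7 members other than Gas1 rose, against 40.7% of genes called and 19.5% called higher. These were Gli1 by 2.06 ± 0.50 (edgeR adjusted p = 0.00176), Boc by 0.62 ± 0.10 (1.28e-05), Cdon by 0.32 ± 0.06 (0.000248) and Gli3 by 0.30 ± 0.05 (3.46e-05). In AMP medium 5 of 7 rose, against 43.1% called and 22.3% called higher, with Cdon by 0.70 ± 0.06 (edgeR adjusted p = 2.42e-09), Boc by 0.56 ± 0.09 (2.94e-05), Smo by 0.26 ± 0.04 (3.23e-05), Gli3 by 0.24 ± 0.05 (0.000398) and Ptch1 by 0.22 ± 0.09 (0.049). The Ptch1 value in AMP medium did not pass by DESeq2 (0.0633), without AMP replicate 1 (0.0639) or 2 (0.159) of 24 h or without AMP replicate 1 of 48 h (0.327). Gas1 was higher at 48 h than at 24 h by 1.45 ± 0.28 in ENPP1+ATP medium and by 1.96 ± 0.29 in AMP medium, and in vehicle medium its value was 0.40 ± 0.26 (edgeR adjusted p = 0.55), which passed with no filter on low counts. Cell type markers moved between the times as well. In ENPP1+ATP medium 5 of 10 fibroblast and 4 of 7 smooth muscle or pericyte markers tested were called higher and 7 of 15 cycling markers lower. In AMP medium these counts were 8 of 10, 5 of 7 and 8 of 15. Called the other way were 1 smooth muscle or pericyte marker and 1 cycling marker in ENPP1+ATP medium and 3 cycling markers in AMP medium. In vehicle medium 2 of 10 fibroblast markers were called higher, and of 15 cycling markers 4 were called higher and 4 lower. The part of these changes in the members' values was not tested.

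Whether the change against vehicle itself differed between the times was tested by the interaction of time and medium, for which 30% of genes were called for ENPP1+ATP medium and 31.7% for AMP medium. For ENPP1+ATP medium 5 of 7 members passed, all toward a higher value at 48 h. Gli1 differed by 2.34 ± 0.68 (edgeR adjusted p = 0.01), Boc by 0.43 ± 0.13 (0.0119), Gli3 by 0.38 ± 0.07 (0.000224), Ptch1 by 0.35 ± 0.12 (0.0306) and Cdon by 0.28 ± 0.09 (0.0182). For AMP medium 5 of 7 passed, with Cdon at 0.66 ± 0.09 (edgeR adjusted p = 2.29e-06), Boc at 0.37 ± 0.13 (0.0252), Ptch1 at 0.34 ± 0.12 (0.029), Gli3 at 0.32 ± 0.07 (0.00124) and Smo at 0.19 ± 0.06 (0.0175). By the same interaction, 1 of 10 fibroblast and 4 of 7 smooth muscle or pericyte markers tested were higher and 8 of 15 cycling markers lower for ENPP1+ATP medium. For AMP medium these counts were 6 of 10, 4 of 7 and 6 of 15. Called the other way were 1 smooth muscle or pericyte marker and 1 cycling marker for ENPP1+ATP medium and 2 cycling markers for AMP medium. The part of these markers was not tested. Gli3 for both media and Cdon for AMP medium passed without each library in turn. For ENPP1+ATP medium, Gli1 did not pass without vehicle replicate 1 of 24 h (adjusted p = 0.0816) or of 48 h (0.0521), Boc without ENPP1+ATP replicate 1 of 24 h (0.0822) or replicate 2 of 48 h (0.0728), Cdon without ENPP1+ATP replicate 2 (0.152) or vehicle replicate 1 (0.0826) of 24 h or vehicle replicate 2 of 48 h (0.103), and Ptch1 without ENPP1+ATP replicate 1 (0.217) or vehicle replicate 2 (0.108) of 24 h or ENPP1+ATP replicate 2 (0.0761) or vehicle replicate 1 (0.116) of 48 h. For AMP medium, Boc did not pass without AMP replicate 1 (0.0916) or vehicle replicate 2 (0.0804) of 24 h or AMP replicate 2 (0.0702), vehicle replicate 1 (0.0642) or vehicle replicate 2 (0.0666) of 48 h. Ptch1 did not pass without AMP replicate 2 (0.073) or vehicle replicate 2 (0.0947) of 24 h or AMP replicate 1 (0.142) or vehicle replicate 1 (0.104) of 48 h, and Smo without AMP replicate 2 (0.0652) or vehicle replicate 2 (0.0751) of 24 h or vehicle replicate 1 of 48 h (0.0564).

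ENPP1 medium alone changed no member at 24 or 48 h by edgeR, against 0% of all genes called at each time, and DESeq2 called none. At an unadjusted p under 0.05 the count was 0 of 8 members at each time. Gas1 differed from vehicle by −0.16 ± 0.26 and −0.44 ± 0.26 at the 2 times and Gli1 by 0.33 ± 0.45 and 0.64 ± 0.47, each with an edgeR adjusted p of 1, and Gas1 at 48 h passed with no filter on low counts. Over all genes, 249 and 743 passed at an unadjusted p under 0.05, DESeq2 called 0 at each time, 129 genes were called at 48 h without ENPP1 replicate 2, and no member was among them.

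ATP medium lowered 3 of 8 members at 24 h and 2 of 8 at 48 h, against 6.32% and 2.48% of all genes called lower. In either direction, 11.1% and 7.83% of genes were called. Without each library in turn, the 1983 and 1400 genes behind these shares became 920 to 1205 and 646 to 929, lowest without vehicle replicate 1 of each time. Boc stood at 15.1 and 15.3 CPM at 24 h, a fall of 0.66 ± 0.09 (edgeR adjusted p = 7.24e-06), Cdon at 120 and 120 CPM, a fall of 0.52 ± 0.06 (2.03e-06), and Gli3 at 122 and 125 CPM, a fall of 0.25 ± 0.05 (0.00122). At 48 h Boc fell by 0.34 ± 0.09 (edgeR adjusted p = 0.0101) and Cdon by 0.23 ± 0.06 (0.0162). The Boc call at 48 h was lost without ATP replicate 2 (0.167), vehicle replicate 1 (0.114) or vehicle replicate 2 (0.0756), and the Cdon call without ATP replicate 1 (0.309) or vehicle replicate 1 (0.305). Gas1 in ATP medium differed from vehicle by −0.74 ± 0.26 at 24 h (edgeR adjusted p = 0.113; DESeq2 0.038) and by −0.54 ± 0.26 at 48 h (0.318), although its ATP libraries lay below the vehicle libraries at both times. With no filter on low counts both Gas1 values passed. The fibroblast markers summed to 5235 to 5571 CPM in ATP medium at 24 h and 6939 to 6949 CPM at 48 h, with 6 and 2 of 10 called lower and 1 called higher at each time. Macrophage markers summed to 19.9 to 22.5 and 22.7 to 24.1 CPM, with 2 of 4 tested called higher at each time and 1 lower at 24 h. Those of smooth muscle or pericytes summed to 122 to 126 and 202 to 218 CPM. Of 7 tested, 2 were called lower at each time and 1 higher at 48 h. Those of cycling cells summed to 3423 to 3426 and 3714 to 3735 CPM, with 5 and 2 of 15 called higher and 2 lower at 24 h. The part of these changes in the members' values was not tested.

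ENPP1+ATP medium was also set against ATP medium. At 24 h 4 of 7 members other than Gas1 were lower, against 43.9% of genes called and 22.1% called lower. Ptch1 stood at 32.0 and 35.6 CPM in ATP medium and differed by −1.13 ± 0.09 on the log2 scale (edgeR adjusted p = 1.43e-10), Boc by −0.80 (1.76e-07), Cdon by −0.44 (2.81e-06) and Gli3 by −0.18 (0.00653). The Gli3 call was lost without ENPP1+ATP replicate 2 (0.0636). At 48 h Ptch1 (−0.95, edgeR adjusted p = 2.47e-09), Boc (−0.69, 8.81e-07), Cdon (−0.45, 2.26e-06) and Smo (−0.15, 0.00704) were lower and Gli1 was higher (1.31 ± 0.47, 0.0279), 5 of 7 against 39.5% of genes called. Without ATP replicate 1 the Smo value had an adjusted p of 0.0683, and Gli1 had 0.215 without ATP replicate 2 and 0.135 without ENPP1+ATP replicate 1. Gas1 was lower in ENPP1+ATP than in ATP medium by values of −2.05 at 24 h and −1.21 at 48 h, with no overlap of libraries at either time. Between these media 6 of 10 fibroblast markers were called lower and 1 higher at 24 h, and 5 of 10 were called lower at 48 h. Of 15 cycling markers, 13 and 8 were called higher at the 2 times and 2 lower at 48 h. Called higher were also 4 and 5 of 7 smooth muscle or pericyte markers tested and 2 of 4 macrophage markers tested at each time. The part of these markers in the members' values was not tested.

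The genes whose level followed that of Gas1 most closely over the 10 CF group means, among 10881 genes, were Kif26b (Pearson's r = 0.996), Dclk1 (0.996), Gng12 (0.994), Fcgrt (0.993) and Tbl1xr1 (0.993). Those closest to Ptch1 were Mdfic (0.995), Trim35 (0.994), Gmppb (0.994), Zbtb12 (0.993) and Mid1ip1 (0.993). These are descriptions over 10 means that share media and times, and no other member was among the 5 closest of either gene.

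Further genes of the pathway were read from 4 lists of ligands and their release factors, surface proteins, cytoplasmic and ciliary transducers, and GLI target genes, 72 genes in all. In CFs at 24 h, 15 rose and 26 fell in ENPP1+ATP medium and 20 rose and 28 fell in AMP medium, of 69 tested. Over all genes 23.9% rose and 25.3% fell in ENPP1+ATP medium and 25.3% rose and 27.5% fell in AMP medium, so the counts of genes that rose lay near the background. At 48 h 20 rose and 18 fell, against 20.8% and 24.4% of all genes, and 25 rose and 19 fell, against 21.1% and 22.9%. Of 20 GLI target genes tested, 4 rose and 8 fell in ENPP1+ATP medium at 24 h and 10 rose and 3 fell at 48 h, and in AMP medium 8 rose and 8 fell and then 9 rose and 4 fell. Of 35 transducers, 10 rose and 13 fell and then 6 rose and 13 fell in ENPP1+ATP medium, and 10 rose and 16 fell and then 12 rose and 12 fell in AMP medium. In ATP medium 6 rose and 11 fell at 24 h, against 4.77% and 6.32% of all genes, and 4 rose and 4 fell at 48 h, against 5.35% and 2.48%. Without each library in turn these 17 and 8 calls numbered 6 to 11 and 3 to 7, lowest without vehicle replicate 1 at both times. In ENPP1 medium edgeR called 0 of 69 at either time.

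Among these 69 genes, 10 fell in all 4 comparisons of active medium with vehicle, against 11.7% of all genes, and 6 rose in all 4, against 10.6%, so both counts lay near the background. A further 10, among them Ccnd2, Gpc4, Kif7 and Mycn, were higher in one comparison and lower in another, against 6.14% of all genes. The genes that fell in all 4 include Gsk3b, Prkaca and Csnk1a1, kinases that phosphorylate GLI proteins, Gpr161, a ciliary receptor that restrains the pathway, and the ciliary transport genes Dync2h1 and Ttc21b. Those that rose in all 4 include Ccnd1 and Foxm1, which promote cell division, the ciliary genes Arl13b and Ift88, and the kinase gene Csnk1g1. Ciliary genes and kinase genes thus stood on both sides. Bmp4, a growth factor gene listed as a GLI target, stood at 66.3 CPM in vehicle medium at 24 h and fell by 1.99 ± 0.08 (edgeR adjusted p = 2.2e-15) to 16.7 CPM in ENPP1+ATP medium and by 2.43 ± 0.08 to 12.3 CPM in AMP medium. Gpc6, a cell surface glypican, fell by 1.99 and fell by 2.01 at 24 h, and fell by 2.495 and fell by 2.11 at 48 h, in the 2 media. Tbx2, a transcriptional repressor, rose by 1.94 and 2.32 at 24 h and by 2.04 and 2.34 at 48 h. Ccnd1, cyclin D1, rose by 2.46 and 2.68 at 48 h, from 24.4 CPM to 134.5 and 156.6 CPM. Scube1 rose by 2.45 ± 0.57 (edgeR adjusted p = 0.000802) and 2.57 ± 0.56 (0.000423) at 24 h, Lrp2 fell by 3.46 ± 0.45 (5.36e-07) in ENPP1+ATP medium at 48 h, and Scube2 fell by 2.00 in AMP medium at 48 h (0.04). The ligand gene Ihh passed in none of these 4 comparisons, with adjusted p from 0.126 to 0.683.

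In NRVM cultures most members were lower than under vehicle in the groups labelled ATP, ENPP1+ATP and AMP. Under ATP 6 of 8 members fell, against 59.9% of all genes called and 29.7% called lower, under ENPP1+ATP 7 of 8 fell, against 56% and 27.4%, and under AMP all 8 tested fell, against 57.2% and 28%. Under ENPP1 alone none changed by edgeR or DESeq2, against 0% of all genes, and 0 of 8 members passed at an unadjusted p under 0.05. The comparisons share the vehicle libraries. The summed fibroblast markers were 10552 to 11893 CPM under ATP, 8451 to 8914 CPM under ENPP1+ATP and 11730 to 12525 CPM under AMP, against 24942 to 26324 CPM under vehicle, and 6, 6 and 5 of the 9 markers in the table were called lower, with 2 called higher under AMP. The summed cardiomyocyte markers were 23723 to 25540, 35950 to 37574 and 41816 to 44660 CPM against 42948 to 45206 CPM. Of these 9 markers, 1, 3 and 4 were called higher and 7, 5 and 2 lower. Cycling markers summed to 1024 to 1087, 898 to 899 and 1104 to 1130 CPM against 834 to 858 CPM. Of 14 tested, 8, 4 and 9 were called higher and 3, 5 and 2 lower. Macrophage markers summed to 20.1 to 22.4, 12.1 to 15.3 and 12.8 to 16.5 CPM against 9.08 to 9.44 CPM, with 3, 2 and 3 of 5 tested called higher. The part of these changes in the members' values was not tested.

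**Figure D3:**
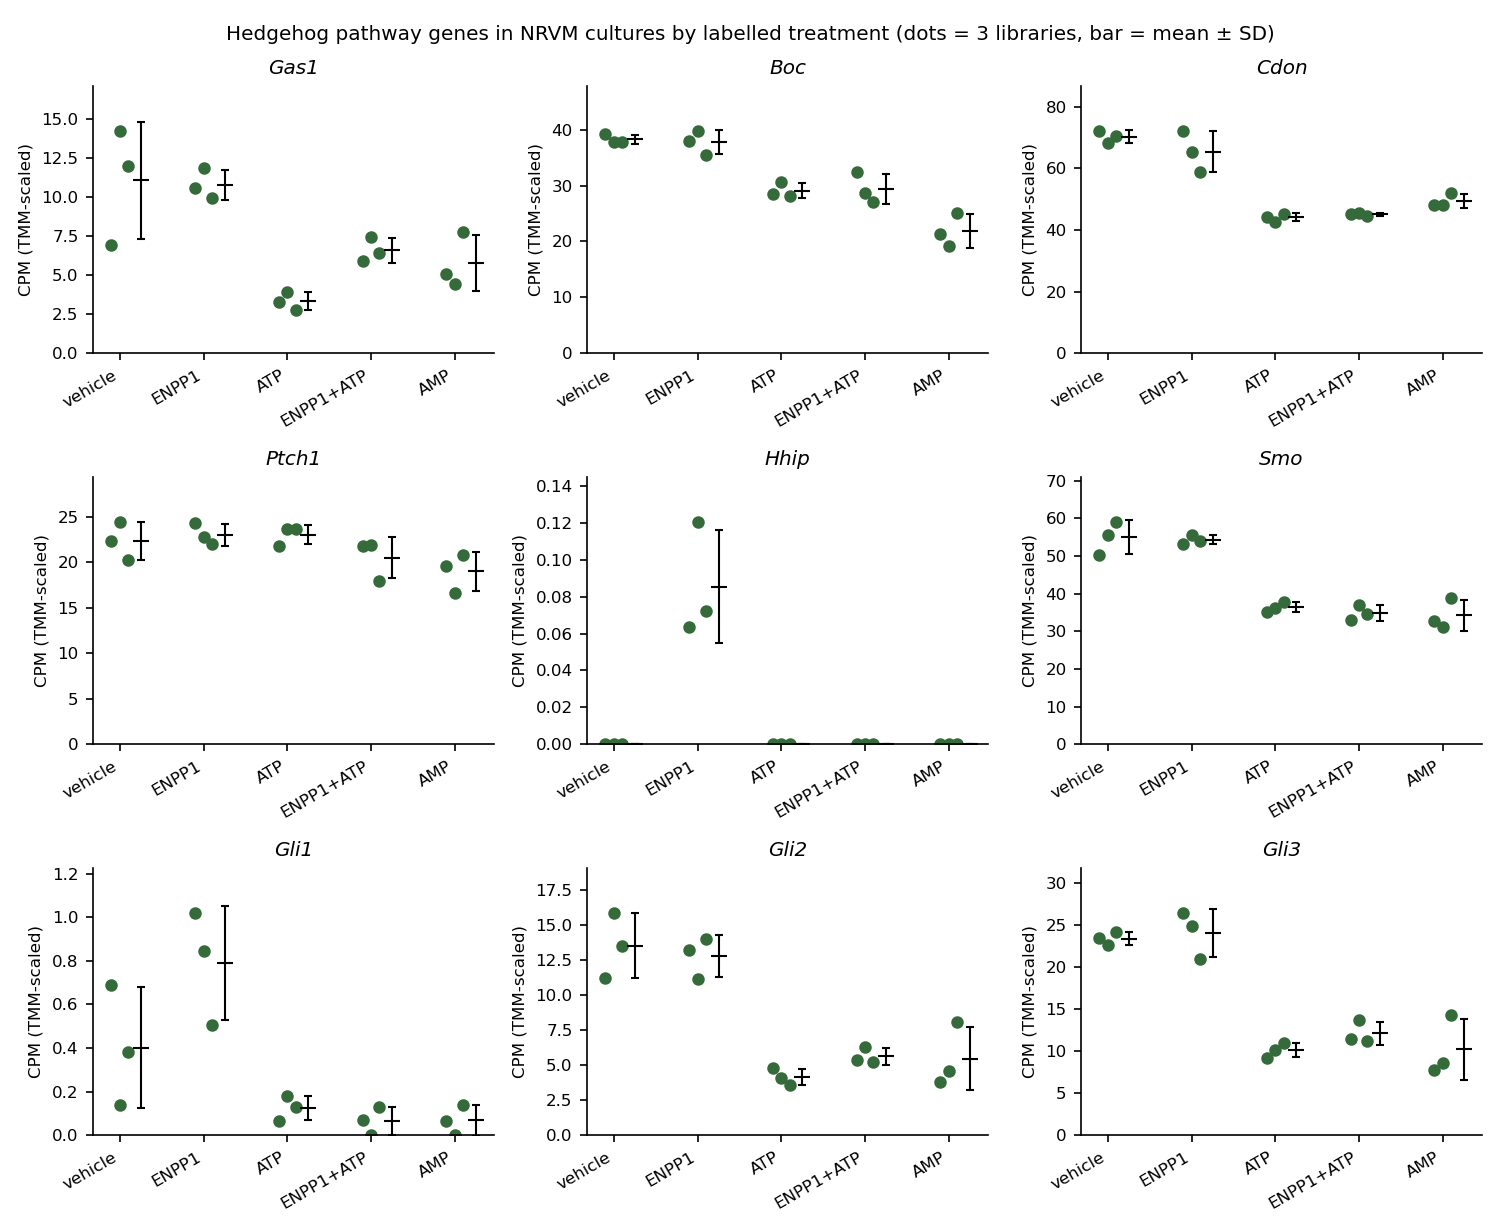
CPM of the 9 members in every NRVM library (y axis, linear, from 0) by labelled treatment (x axis). Dots are 3 libraries per group, and the bar to their right is the mean with the SD. The 3 ATP libraries of Gas1 lie between 2.77 and 3.92 CPM, below the 5.92 to 7.47 CPM of the ENPP1+ATP libraries.

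Gas1 was a low gene in NRVM cultures, at 6.94, 14.3 and 12.02 CPM under vehicle, 10.6, 11.8 and 9.93 CPM under ENPP1, 3.27, 3.92 and 2.77 CPM under ATP, 5.92, 7.47 and 6.40 CPM under ENPP1+ATP and 5.07, 4.43 and 7.78 CPM under AMP. The lowest vehicle library overlapped both ENPP1+ATP and AMP libraries, while ATP libraries lay below all others. Gas1 fell by 1.73 ± 0.25 under ATP (edgeR adjusted p = 1.68e-05), by 0.74 ± 0.23 under ENPP1+ATP (0.0118) and by 0.95 ± 0.24 under AMP (0.0026). The adjusted p for ENPP1+ATP was 0.05 without ENPP1+ATP replicate 1 and 0.0502 without vehicle replicate 2. Between ENPP1+ATP and ATP, where 27.5% of all genes were called, Gas1 was the only member of 8 past the threshold and was higher with ENPP1+ATP by 0.99 ± 0.27 (edgeR adjusted p = 0.0106). Without ATP replicate 3 that value was 0.87 with an edgeR adjusted p of 0.0552. Between these groups 4 of 9 fibroblast markers tested were called higher and 2 lower, and 7 of 9 cardiomyocyte markers were called higher. Of 9 endothelial markers 5 were called lower and 1 higher, and 8 of 14 cycling markers were called lower. The part of these marker calls in the Gas1 value was not tested.

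The coreceptor Cdon stood at 72.3, 68.3 and 70.5 CPM under vehicle, 44.4, 42.7 and 45.4 CPM under ATP, 45.4, 45.5 and 44.6 CPM under ENPP1+ATP and 48.0, 48.3 and 51.9 CPM under AMP, with no overlap with vehicle. It fell by 0.67 (edgeR adjusted p = 7.27e-13), 0.64 (4.3e-12) and 0.51 (1.36e-09). Boc stood at 37.8 to 39.3 CPM under vehicle and fell by 0.40 under ATP (edgeR adjusted p = 3.02e-05), by 0.38 under ENPP1+ATP (6.43e-05) and by 0.81 under AMP (2.02e-11), where its libraries were lowest at 21.3, 19.2 and 25.2 CPM. Smo fell by 0.60 (edgeR adjusted p = 5.98e-10), 0.65 (8.27e-11) and 0.68 (3.03e-11), from 50.4 to 59.2 CPM under vehicle to between 31.25 and 39.0 CPM in the 3 groups. All 3 genes thus had separate ranges under vehicle and in each of these groups.

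Ptch1, the receptor, passed the test under AMP alone in NRVM cultures. It stood at 22.4, 24.5 and 20.2 CPM under vehicle, 21.8, 23.7 and 23.6 CPM under ATP, 21.8, 21.8 and 17.9 CPM under ENPP1+ATP and 19.5, 16.6 and 20.8 CPM under AMP. Its differences were 0.04 (edgeR adjusted p = 0.709) under ATP and −0.13 (0.251) under ENPP1+ATP. Under AMP it fell by 0.24 ± 0.09 (edgeR adjusted p = 0.0288), with overlapping libraries, and this did not pass by DESeq2 (0.0622) or without AMP replicate 2 (0.207), vehicle replicate 1 (0.0525) or vehicle replicate 2 (0.188).

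Gli2 stood at 11.2, 15.9 and 13.5 CPM under vehicle and at 4.78, 4.10 and 3.60 CPM under ATP, 5.35, 6.32 and 5.23 CPM under ENPP1+ATP and 3.82, 4.56 and 8.06 CPM under AMP. It fell by 1.70 ± 0.20 (edgeR adjusted p = 1.36e-07), 1.26 (6.89e-06) and 1.31 (4.29e-06) with no overlap with vehicle. Gli3 was at 22.6 to 24.1 CPM under vehicle and fell by 1.21 ± 0.16 under ATP (edgeR adjusted p = 4.31e-06), fell by 0.94 under ENPP1+ATP (6.55e-05) and fell by 1.203 under AMP (5.59e-06), and its AMP libraries spread from 7.70 to 14.3 CPM. Gli1 had 10, 2 and 5 counts under vehicle, 16, 14 and 7 under ENPP1, 1, 3 and 2 under ATP, and 1, 0 and 2 under both ENPP1+ATP and AMP. It fell by 2.46 ± 0.88 under ENPP1+ATP (edgeR adjusted p = 0.0161) and by 2.44 under AMP (0.0167), and its value under ATP was −1.62 (0.0657). These calls were lost without vehicle replicate 1 (0.153 and 0.155) and without replicate 2 of ENPP1+ATP (0.0814) or of AMP (0.0836), and without vehicle replicate 2 the value under ATP passed (0.0272). Hhip had 4 counts in all, each in an ENPP1 library, and 12 of 15 libraries were at 0.

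Of 64 wider pathway genes tested in NRVM cultures, 17 rose and 24 fell under ATP, 16 rose and 21 fell under ENPP1+ATP and 15 rose and 19 fell under AMP. These counts lay near the background of all genes, of which 30.2% rose and 29.7% fell under ATP, 28.6% and 27.4% under ENPP1+ATP and 29.2% and 28% under AMP, and are no result about the pathway. Gpc6 fell by 3.18 under ENPP1+ATP and fell by 2.94 under AMP, the receptor gene Lrp2 fell by 2.14 and fell by 1.76, and the glypican gene Gpc3 fell by 1.91 and fell by 1.65. Bmp4 fell by 1.14 under ENPP1+ATP, and Snai1, a transcription factor gene of mesenchymal cells, fell by 1.47 under AMP.

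The libraries of injured heart nonmyocytes gave 5240 cells for the control and 7255 for ENPP1CKO after filters and removal of 69 and 151 predicted doublets, with medians of 3701 and 3367 UMIs per cell. The libraries shared 68 cell barcodes. Cells fell into 18 clusters, named as classes from markers, without use of the members, of the wider pathway genes or of Enpp1. Fibroblast-like cells numbered 1788 and 3666, macrophage-like cells 2634 and 2126, among them cluster 7 led by genes of cell division, and smooth muscle or pericyte-like cells 79 and 158. Clusters 5 and 14 both matched endothelial markers, but cluster 14, of 30 control and 65 ENPP1CKO cells, was led by the lymphatic markers Lyve1, Prox1 and Flt4 and is given apart from cluster 5, of 162 and 867 cells led by Cdh5, Emcn and Esam. Fibroblast-like cluster 10 was led by the interferon response genes Ifit3b and Ifit3. Control fibroblast-like cells lay mainly in clusters 1 and 2 and those of ENPP1CKO mainly in clusters 0 and 1, and a cluster mostly of 1 library may be that library. With 1 library per genotype there is no replicate check and no test, and the 95% intervals below cover counting error only. As a check of the labels, Enpp1 was at 126 CPM in control and 28.5 CPM in ENPP1CKO fibroblast-like cells, or −2.15 [−2.31, −1.99] as a log2 ratio.

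**Figure D4:**
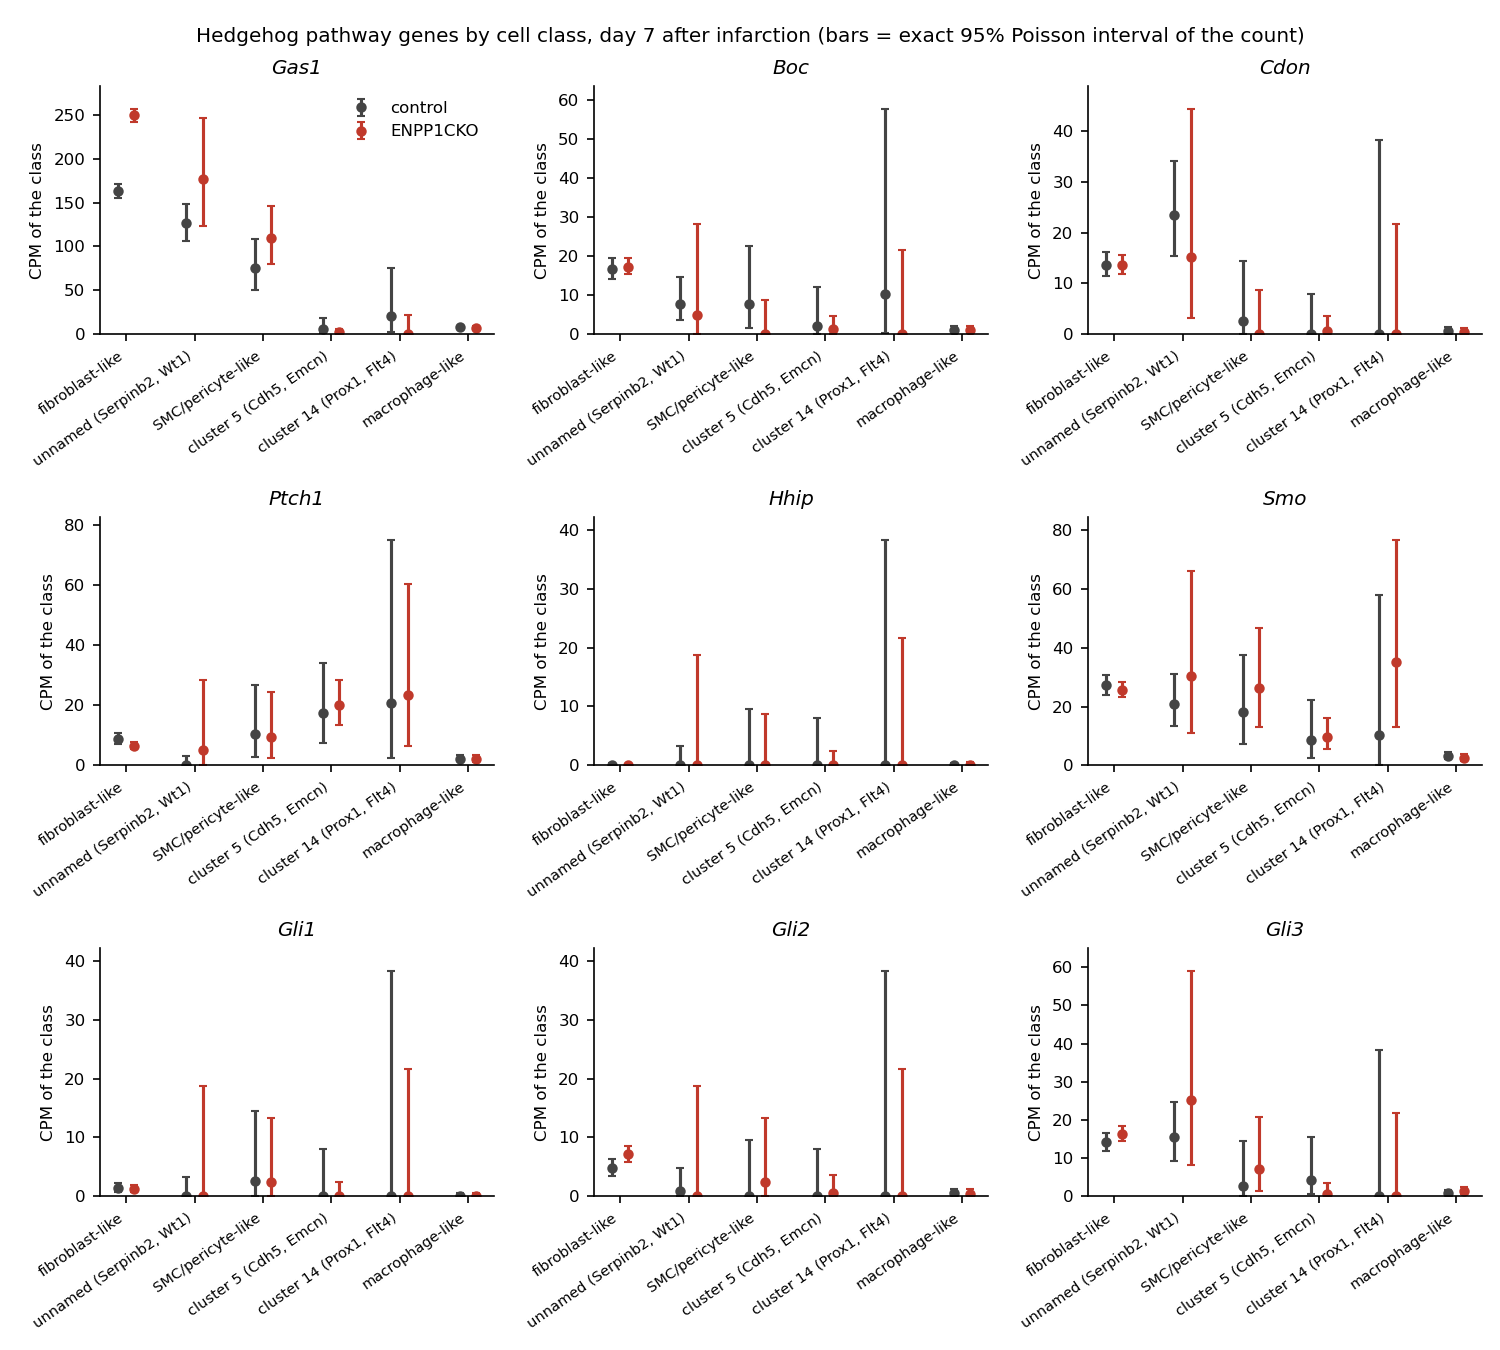
CPM of each member (panels; y axis, linear, from 0) over the summed cells of each class or cluster (x axis) in the control (dark) and ENPP1CKO (red) library, with exact 95% Poisson intervals that cover counting error only; SMC stands for smooth muscle cell. By CPM, Gas1 is highest in fibroblast-like cells among the classes and clusters shown, at 163 CPM in control and 249 CPM in ENPP1CKO cells.

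Gas1 had at least 1 UMI in 42.3% of control and 50.5% of ENPP1CKO fibroblast-like cells, against 1.94% and 1.93% of macrophage-like cells. Median depth was 5071 and 4024 UMIs in fibroblast-like and 3273.5 and 3305.5 UMIs in macrophage-like cells. Thinned to 1000 UMIs per cell, with 44 and 110 shallower cells left out, the shares were 13.99% and 22.2% in fibroblast-like and 0.452% and 0.437% in macrophage-like cells. In the class as a whole Gas1 stood at 163 [155, 171] CPM in the control and 249 [242, 257] CPM in ENPP1CKO, or 0.61 [0.53, 0.70] as a log2 ratio. By cluster it stood at 232 and 269 CPM in cluster 0 (0.21 [−0.00, 0.43]), 247 and 311 CPM in cluster 1 (0.33 [0.21, 0.45]), 91.1 and 155 CPM in cluster 2 (0.77 [0.60, 0.95]) and 133 and 199 CPM in cluster 10 (0.58 [0.14, 1.04]). The ENPP1CKO value was thus the higher of the pair in each of the 4 clusters, and cluster 0 was the closest to no difference.

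Outside fibroblast-like cells, Gas1 stood at 75.3 and 109 CPM in smooth muscle or pericyte-like cells (0.54 [−0.16, 1.26]) and had 3 and 4 counts in cluster 5 and 2 and 0 counts in cluster 14. In those smooth muscle or pericyte-like cells the fibroblast markers summed to 12311 CPM in control and 6684 CPM in ENPP1CKO, with none of 10 at 0, against 43267 and 45480 CPM in fibroblast-like cells, and their part in the Gas1 values was not tested. A cluster led by Serpinb2, Wt1 and Krt19, of 117 control and 31 ENPP1CKO cells, was left unnamed and held Gas1 at 126 and 177 CPM beside fibroblast markers of 17447 and 21732 CPM. Thinned to 1000 UMIs per cell, Gas1 was seen in 17.9% and 25.8% of its cells, against 13.99% and 22.2% of fibroblast-like cells. Over fibroblast-like cells, the log2 ratios of 12628 genes that reached 20 counts had a median of 0.02 and ran from −0.72 to 0.70 between their 5th and 95th percentiles, so the Gas1 value of 0.61 lay inside this range. Markers of smooth muscle or pericytes summed to 1554 and 523 CPM in these fibroblast-like cells and those of macrophages to 585 and 344 CPM, and their part in the values was not tested.

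**Figure D5:**
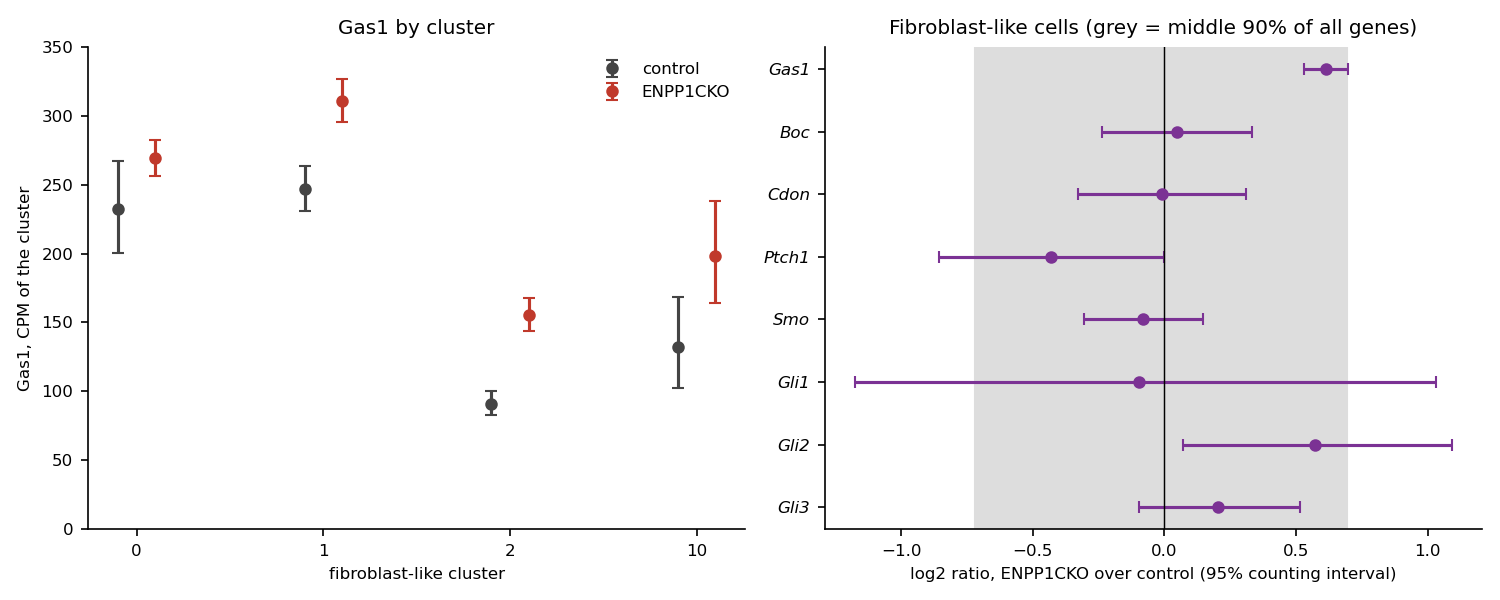
Left, Gas1 CPM (y axis, from 0) in each fibroblast-like cluster (x axis) of the control and ENPP1CKO libraries, and right, the log2 ratio of ENPP1CKO over control (x axis) of each member in the whole class, with 95% intervals that cover counting error only and grey from the 5th to the 95th percentile of all genes. Gas1 is the higher in ENPP1CKO in each of the 4 clusters, and all points at the right lie inside the grey range.

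The other coreceptors had nearly equal values in the 2 libraries of fibroblast-like cells. Boc was at 16.8 and 17.3 CPM (0.05 [−0.24, 0.33]) and Cdon at 13.7 and 13.6 CPM (−0.01 [−0.33, 0.31]). Smo was at 27.2 and 25.7 CPM (−0.08 [−0.31, 0.15]) and Gli3 at 14.1 and 16.3 CPM (0.21 [−0.10, 0.51]). For these 4 genes the interval included no difference, and none of the intervals reached a 2-fold difference in either direction.

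The fibroblast-like class held Ptch1 at 8.79 and 6.52 CPM, or −0.43 [−0.86, −0.00] as a log2 ratio, and a UMI of Ptch1 was seen in 4.7% and 2.76% of cells. After thinning to 1000 UMIs the shares were 0.631% and 0.731%, so the order turned, and no difference is read from it. In cluster 5 Ptch1 was at 17.3 [7.45, 34.0] and 20.0 [13.6, 28.3] CPM, in cluster 14 it had 2 and 4 counts, and in macrophage-like cells it was at 2.24 and 2.12 CPM.

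In the same class Gli2 was at 4.80 and 7.14 CPM (0.57 [0.07, 1.09]), and after thinning it was seen in 0.459% and 0.506% of cells, from which no difference is read. Gli1 had 13 and 20 counts (1.33 and 1.24 CPM, −0.10 [−1.18, 1.03]), and in cluster 0 it had 7 counts in control and 14 in ENPP1CKO cells. Hhip had 0 counts in all cells of both libraries. Of the ligands, Shh had 0 counts, Ihh 1 and 1, and Dhh 20 and 18 counts in fibroblast-like and 3 and 11 counts in cluster 5.

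Of the wider pathway genes, 62 reached 20 counts in the fibroblast-like class, with a median log2 ratio of 0.10 and 21 of 62 below 0, against a median of 0.02 and 6059 of 12628 below 0 over all genes. Chosen after their values were seen, Foxf2 at −1.13 [−2.56, 0.24] from 12 and 9 counts, Sfrp1 at −1.10 [−1.14, −1.06], Dhh at −0.87 [−1.88, 0.12] from 20 and 18 counts and Gpc4 at −0.73 [−0.92, −0.55] lay lowest, and Scube2 at 1.32 [0.89, 1.78], Gpc3 at 1.31 [1.02, 1.60] and Tbx2 at 1.26 [0.50, 2.09] lay highest.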

How the data were processed

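RNA was profiled in 37 samples, of which 20 were CF, 15 NRVM and 2 single-cell libraries. Per the submitters' processing notes, the authors used STAR 2.5.3a and Cell Ranger with mm10 and rn6, and the counting program and its use of strand are not given in the sources used here. The authors deposited raw counts per gene for the bulk libraries and UMI counts per gene and cell for the 2 heart libraries, with no normalization. From these counts, CPM, log2 changes and tests were computed with edgeR 4.0.16 (filterByExpr, TMM, quasi-likelihood test, all libraries of an experiment in 1 fit, adjusted p of 0.05), with DESeq2 1.42.0 as an alternative, in R 4.3.3. Replicates of a group differed by more than sampling noise, with a lowest chi-square per gene of 6.34 in CFs and 2.46 in NRVMs. The test was run on simulated counts first.

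Cells of 200 or more genes with mitochondrial shares up to 20% were kept, predicted doublets removed, and cells clustered with scanpy 1.11.5 on 2000 variable genes, 30 principal components and 15 neighbours (Leiden resolution 0.5). No cell annotation was used, so classes were rebuilt from markers and may differ from those of the study. Counts were summed per class and library, with exact Poisson intervals for CPM, exact conditional binomial intervals for ratios and 95% confidence, and 30934 of 31053 Ensembl IDs were matched to a symbol. Levels per kb use the union of annotated exons.

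The members and lists were chosen with earlier results of these data known. Named genes were the 9 members, up to 4 called genes of the wider lists with the largest change in each comparison of ENPP1+ATP or AMP with vehicle, the ligands, and the 5 genes most like Gas1 and Ptch1. The search for the closest stretch to the GLI motif was added after seeing the data. Alternatives were RLE factors, no filter on low counts, DESeq2, libraries of the same time alone, a replicate block and leaving out each replicate, and for cells another resolution (1), stricter filters (500 genes, 10%), no doublet removal, thinning to 1000 UMIs and no gene left out of the clustering.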

Additional observations from a re-analysis of the deposited data

Results flagged for a closer look

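In CFs, the change in ENPP1+ATP medium against vehicle differed between 48 and 24 h, by edgeR's test of the interaction, for Gli1 (2.34), Boc (0.43), Gli3 (0.38), Ptch1 (0.35) and Cdon (0.28), and the change in AMP medium differed for Cdon (0.66), Boc (0.37), Ptch1 (0.34), Gli3 (0.32) and Smo (0.19), all on the log2 scale and higher at 48 h. Of all genes, 30% were called for ENPP1+ATP medium and 31.7% for AMP medium. Apart from Gli3 in both media and Cdon in AMP medium, these calls were lost without some single libraries, as given above.

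In some comparisons the libraries of the compared groups lay apart in one direction in CFs and in the other in NRVMs. For ENPP1+ATP against ATP, Gas1 had values of −2.05 at 24 h and −1.21 at 48 h in CFs, given with no test, and 0.99 in NRVMs, where it passed edgeR's test (adjusted p = 0.0106). Gli3 had −0.18 at 24 h in CFs, where it passed (edgeR adjusted p = 0.00653), and 0.26 in NRVMs, where it did not (0.289). Gli2 had −0.63 at 48 h in CFs and 0.44 in NRVMs, and passed in neither (edgeR adjusted p = 0.219 and 0.149). For ENPP1+ATP against vehicle, Gli1 had 1.18 at 48 h in CFs and −2.46 in NRVMs, and passed in both (edgeR adjusted p = 0.0378 and 0.0161), but in NRVMs each group held a library of 2 counts, so their ranges were apart only after scaling. The Gli1 call in CFs was lost by DESeq2 (adjusted p = 0.0595), and by edgeR with no filter on low counts (0.0592) or with libraries of 48 h alone (0.0602). The calls of Gli1 in both tables, of Gas1 in NRVMs and of Gli3 in CFs were also lost without some single libraries, as given above. The difference between the cell types was not tested, since the tables are of different species and the treatments may not have been alike.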

How the results depend on the processing

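With no filter on low counts, 1 member (Gas1) was called for CF ENPP1 medium against vehicle at 48 h and 1 (Gas1) for 48 against 24 h in vehicle medium, where 0 were called with the filter, 4 and 3 (Gas1 added at both times) for CF ATP medium against vehicle at 24 and 48 h, where 3 and 2 were, 5 (Gli1 lost) for ENPP1+ATP medium against vehicle at 48 h in CFs, where 6 were, and 2 (Gas1 and Gli2) for ENPP1+ATP against ATP in NRVMs, where 1 was (the cause was not tested). Over all genes, ENPP1 against vehicle gave 26 calls at 24 h, 180 at 48 h and 14 in NRVMs with no filter, against 0 in each with it, and DESeq2 gave 1 in NRVMs. In ATP medium at 24 h, 43.0% of calls were higher with TMM, 51.1% with RLE factors and 51.9% by DESeq2. Leaving out each library in turn, the number of members called ran from 3 to 5 for the interaction of ENPP1+ATP medium and time (5 with all libraries), from 2 to 5 for that of AMP medium (5), from 0 to 1 for ATP medium against vehicle at 48 h (2) and from 0 to 1 for ENPP1+ATP against ATP in NRVMs (1). In CFs such a fit leaves a group with 1 library, which is assumed to vary like the other groups. Over these fits 727 member values kept their side of the threshold, 49 lost and 6 gained it. DESeq2 kept 155 of 160 member values on their side, RLE factors 158, no filter 154, and libraries of the same time alone 79 of 80. No bulk value changed sign where it was called. All these counts, and that for the replicate block below, include the Gas1 values in CFs that got no test and have no side. Such a value was counted as kept where it moved by less than the largest SD of log2 levels in the compared groups. A value with no adjusted p by DESeq2 would also count as kept. With RLE factors 6 members in place of 4 were called for 48 against 24 h in ENPP1+ATP medium in CFs. The labels do not say whether replicate numbers pair the libraries. Between compared CF groups, deviations of libraries of the same number from their group mean correlated by −0.106 to 0.132 over all genes. Gas1 in CFs was lower in ENPP1 medium than in the vehicle library of the same number, for both numbers and at both times. With a replicate block, 159 of 160 member values kept their side of the threshold and 1 passed it (Gas1, ATP against vehicle at 24 h in CFs, −0.73, edgeR adjusted p = 0.0479), so that 4 members in place of 3 were called in that comparison. With the numbers of the ATP libraries crossed at 24 h, 2091 genes were called, against 2129 with the block and 1983 without, and 3 members, against 4 and 3. In single cells, the Ptch1 log2 ratio in fibroblast-like cells turned to 0.25 after thinning to 1000 UMIs. Depth limits Gli1 and Hhip in all experiments and Gli2 in CFs.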
